A study of Drosophila melanogaster with 8 samples.

Results

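Cytochrome P450 genes were examined in the head transcriptomes of EA mutant and WT flies. They were taken as every row of the expression table whose FlyBase identifier has a symbol made of Cyp, digits, lower-case letters and digits, so that cyclophilins such as Cyp1 were left out. This gave 78 genes of 14622 in the table. The annotation holds 81 such symbols, and Cyp4ad1, Cyp9f3 and Cyp6a21 were not analysed here. Cyp12d1-p, a P450 gene whose symbol carries a suffix, and the P450 genes of ecdysteroid synthesis with other names (phm, dib, sad, shd, spo and spok) also lay outside the rule. The EA mutant (y, sc, AdarE374A; 4 libraries) is a line in which a point mutation inactivates the deaminase ADAR, the enzyme that converts adenosine to inosine in RNA. It was compared with WT (white Canton-S; 4 libraries), to which the study's methods say the mutant had been backcrossed. Both groups were heads of male flies aged 3 days and kept at 18 °C, and the RNA was read in pairs of 75 bp. The protocol describes the RNA as total RNA from which ribosomal RNA was removed, while the molecule label gives polyA RNA. The labels do not say that replicates came from separate cultures, so p-values measure the spread between these libraries, which may be technical. The mutant also carries y and sc, while WT carries a w mutation, so editing and the remaining strain difference cannot be told apart.

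Cytochrome P450 proteins are haem enzymes that insert oxygen into small lipophilic molecules, using electrons from a reductase. Insect genes fall into 4 clans. Members of the CYP3 and CYP4 clans often act on plant toxins, insecticides, fatty acids and hydrocarbons, several CYP2 genes act in hormone turnover or development, and the mitochondrial clan takes its electrons from a ferredoxin. In flies the strongest P450 expression is found in the fat body, midgut, Malpighian tubules and oenocytes. The head contains fat body beside brain and eyes. Expression of several P450 genes is known to differ between fly strains, and in some cases this alters insecticide resistance.

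The libraries held 12517490 to 24342035 reads in EA heads and 9930607 to 19173154 reads in WT heads. P450 genes took 0.195% to 0.304% of the reads in EA heads and 0.181% to 0.259% in WT heads. The labels were checked on w and Adar. The w gene had 134, 146, 189 and 173 normalized counts in EA heads and 3.97, 0, 1.08 and 1.38 in WT heads, whose strain carries the w mutation. Adar itself did not pass the test (log2 fold change 0.28, adjusted p = 0.594), and a point mutation need not alter its count. As a check of the tissue, photoreceptor and neuron genes were summed. The photoreceptor genes summed to 377378 to 447668 normalized counts in EA heads and 272131 to 336561 in WT heads. Every EA library was above every WT library in this sum. Of the 9 photoreceptor genes tested, 5 had all EA libraries above all WT libraries and 1 had them below (66.7%, against 7.99% of all genes tested). The neuron genes summed to 78575 to 135487 in EA heads and 75834 to 97276 in WT heads. WT replicates 2 and 4 stood apart from all other libraries in transcripts such as Muc68D, a mucin gene, which had 1.15, 0, 0 and 0.574 normalized counts in EA heads and 1.32, 26956, 0 and 19540 in WT heads. Where a P450 gene is described by its high values in these libraries, its log2 fold change is given with and without them.

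Of the 78 genes, 36 belonged to the CYP3 clan, 31 to the CYP4 clan, 7 to the mitochondrial clan and 4 to the CYP2 clan. Chromosome arm 2R held 30 of them, 3R held 15, X held 14, 2L held 13 and 3L held 6. Levels between genes were compared as normalized counts per kb of exon, where a normalized count is the number of reads divided by the size factor of the library. The 10 genes with the highest levels held 66.7% of all normalized P450 counts in EA heads and 66.3% in WT heads. They were Cyp313a1, Cyp6d5, Cyp4d21, Cyp6a2, Cyp6g1, Cyp9f2, Cyp6w1, Cyp28d1, Cyp6a20 and Cyp6a8, of which 8 are of the CYP3 clan and Cyp313a1 and Cyp4d21 of the CYP4 clan. Cyp6g1 had the highest mean level in EA heads, at 1905 per kb against 1003 per kb in WT heads. Cyp6d5 had the highest mean level in WT heads, with 1387 per kb in EA heads and 2009.8 per kb in WT heads. The median level over the 78 genes was 68.99 per kb in EA heads and 67.1 per kb in WT heads. By clan the median over genes of the rule was highest in the mitochondrial clan. It was 150.5 per kb in EA heads and 126 per kb in WT heads. The mitochondrial genes dib, sad and shd lay outside the rule and are not in this median. They had low means, at 4.09, 4.54 and 5.08 normalized counts in EA heads and 3.12, 4.24 and 15.5 in WT heads. The ranking of clans therefore applies only to genes of the rule.

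**Figure D1:**
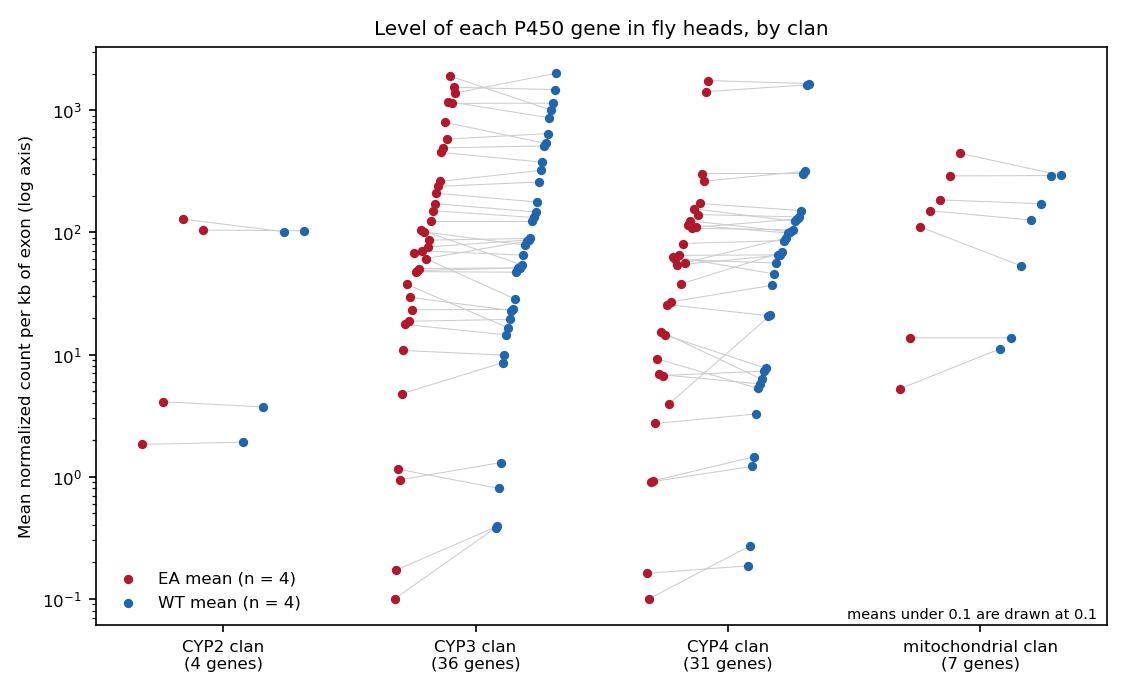
Mean normalized count per kb of exon (log axis) of each of the 78 P450 genes in EA heads (red, left of each clan) and WT heads (blue, right), with a grey line joining the means of the same gene (n = 4 libraries each). Levels ran from under 1 to 1905 per kb in EA heads and to 2009.8 per kb in WT heads, and most joining lines are close to level.

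A mean of at least 10 normalized counts over the 8 libraries was reached by 69 of the 78 genes, and these were tested with limma on log2(normalized count + 1). Of the 69, 1 gene passed an adjusted p of 0.05, namely Cyp6g1, which was higher in EA heads (1 of 69, against 1.21% of the 10347 genes tested in all). In the same fit 0.657% of all genes tested were called higher in EA heads and 0.551% lower. At an unadjusted p under 0.05, 11 P450 genes were reached (7 higher and 4 lower in EA heads), against 12.7% of all genes tested (7% higher and 5.65% lower). The 4 EA libraries lay wholly above or below the 4 WT libraries for 5 of the 69 genes (7.25%; 3 above and 2 below), against 7.99% of all genes tested (3.96% above and 4.03% below). The median log2 fold change was 0.07 over the 69 genes and -0.00 over all genes tested, with 39 P450 genes above 0 and 30 below. Count-based tests on the recovered reads called 4 P450 genes with DESeq2 and 2 with edgeR. DESeq2 called 3 higher and 1 lower in EA heads, against 2.62% and 1.92% of all genes (4.54% in all), and edgeR called 2 higher and 0 lower, against 0.696% and 0.522% (1.22% in all). In bulk heads, fewer cells of a type and less RNA per cell cannot be told apart.

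Precision differed between genes. The estimate lay within 1.5-fold for 54 of the 69 genes (78.3%) and for 91.6% of all genes tested. The median SD between replicates on the log2 scale was 0.36 in EA heads and 0.28 in WT heads over P450 genes. Over all genes tested it was 0.20 in EA heads and 0.18 in WT heads. A 95% interval lying wholly within 1.5-fold was reached by 24 of the 69 genes (34.8%), against 64.8% of all genes tested. For Cyp4d14 the whole interval lay beyond 1.5-fold (lower bound 1.57). For the remaining genes a change of this size was neither shown nor bounded by these libraries.

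**Figure D2:**
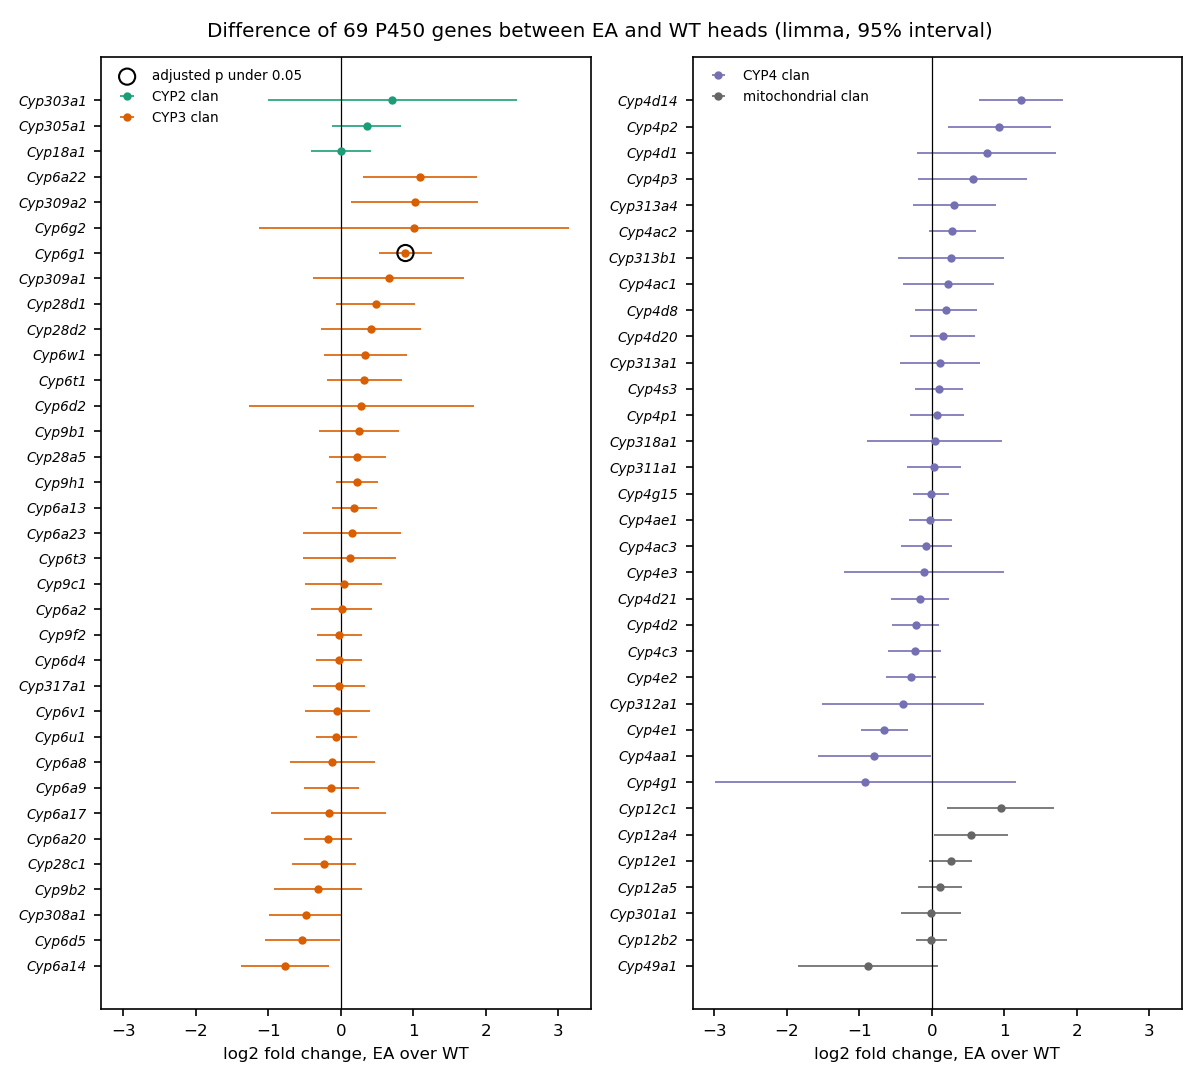
Log2 fold change of EA over WT for the 69 tested P450 genes (points: limma estimate; bars: 95% interval), with the CYP2 and CYP3 clans on the left and the CYP4 and mitochondrial clans on the right. The circled gene is Cyp6g1 (0.89), the single gene with an adjusted p under 0.05, and the widest bars belong to Cyp6g2 and Cyp4g1.

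Cyp6g1 (FBgn0025454), whose raised expression is known to confer resistance to DDT and neonicotinoid insecticides, lies at 2R:12185667-12188431 on the plus strand (positions are those of assembly BDGP6.54). It had 3362, 2861, 4885 and 4699 normalized counts in EA heads, against 2216, 1928, 1979.8 and 2197 in WT heads. All EA libraries were above all WT libraries, and the WT libraries differed little from each other. The mean was 3952 ± 994 in EA heads and 2080.3 ± 148 in WT heads (SD, n = 4 each). The fold change was 1.86 (95% interval 1.44 to 2.40), with an adjusted p of 0.0405 in limma, 2.23e-05 in DESeq2 and 0.0366 in edgeR. The direction was kept in every alternative, while the limma call was lost (adjusted p 0.0711 to 0.145) on leaving out EA replicate 1 or 4 or any WT replicate, without WT replicates 2 and 4 together (adjusted p = 0.304, log2 fold change 0.88), and with no variance trend in the limma fit (adjusted p = 0.0848).

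Cyp6g1 is followed on 2R by Cyp6g2 and Cyp6t3, within 6.8 kb in all. Cyp6g2, which can also give insecticide resistance when over-expressed, had 322, 249.6, 280.1 and 126 normalized counts in EA heads and 26.5, 418, 29.1 and 504 in WT heads. WT replicates 2 and 4 were above all EA libraries, and WT replicates 1 and 3 were below them. The log2 fold change over all libraries was 1.01 (95% interval -1.12 to 3.14, adjusted p = 0.752) in limma and -0.00 in DESeq2. Without WT replicates 2 and 4, the libraries with its highest counts, it was 3.01 (adjusted p = 0.0461 in limma). In that setting Cyp6g2 was the 1 P450 gene called, of 19 among all 10347 genes tested. The size of this change follows from which libraries were left out. Cyp6t3, a gene linked to ecdysone synthesis in the larval prothoracic gland, gave a log2 fold change of 0.12 (adjusted p = 0.924). Cyp6g1 and Cyp6g2 are on opposite strands and share 94 bp of exon, which is 4.53% of the exons of Cyp6g1.

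Cyp4d14 (FBgn0023541, X:2173415-2175315, minus strand) was called by the count-based tests. It had 26.4, 30.8, 25.2 and 21.8 normalized counts in EA heads and 7.94, 11.1, 12.9 and 10.4 in WT heads. The groups did not overlap. The log2 fold change was 1.23 (95% interval 0.65 to 1.81), the largest among the 69 genes, with an adjusted p of 0.059 in limma, 0.0161 in DESeq2 and 0.0452 in edgeR. An antisense transcript annotated on the plus strand, asRNA:CR45479, overlaps 96.2% of the exons of Cyp4d14. Strand-specific counting is not given in the sources used here, so reads from the gene and from its antisense partner cannot be told apart. The same limit holds for the 12 P450 genes that overlap another gene by at least 10% of their exons. Among them are Cyp6d2 (51.0%, with nsr), Cyp303a1 (33.0%, with heix) and Cyp4aa1 (15.8%, with Strn-Mlck), each overlapped on the opposite strand.

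Cyp4d14 lies 0.40 Mb from Adar on X, where sequence linked to the Adar mutation can differ between the strains, and 4 other P450 genes lie within 5 Mb of Adar. Its neighbours in the same run, Cyp4d2 and Cyp4ae1, had log2 fold changes of -0.22 (adjusted p = 0.589) and -0.02 (adjusted p = 0.978). Most of the exons of both (98.7% of Cyp4d2 and 88.2% of Cyp4ae1) are overlapped by asRNA:CR44690. Cyp4d1, 0.385 Mb from Adar, had 19.5, 10.5, 31.7 and 22.4 normalized counts in EA heads and 5.29, 15.8, 14.0 and 13.1 in WT heads (log2 fold change 0.75, adjusted p = 0.524). The groups overlapped through EA replicate 2. For these genes the effect of the editing mutation and that of linked sequence cannot be told apart.

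Cyp4e1 (FBgn0015034, 2R:8447451-8449745, plus strand) had 97.4, 90.5, 114.9 and 97.5 normalized counts in EA heads and 128, 155, 158 and 198 in WT heads. All EA libraries were below all WT libraries. The log2 fold change was -0.66 (95% interval -0.98 to -0.33), with an adjusted p of 0.0724 in limma, 0.00581 in DESeq2 and 0.0656 in edgeR. On leaving out each library in turn, the limma adjusted p was 0.0492 to 0.195. It was under 0.05 only without WT replicate 1, the WT library with the lowest count. Without WT replicates 2 and 4 together the log2 fold change was -0.51 (adjusted p = 0.379 in limma). The gene next to it, Cyp4e2, had 425, 403, 649 and 515 normalized counts in EA heads and 521, 587, 609 and 683 in WT heads, with a log2 fold change of -0.29 (adjusted p = 0.489). Its groups overlapped through EA replicate 3.

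Cyp12c1 (FBgn0036806), of the mitochondrial clan, had 156, 105, 331 and 246 normalized counts in EA heads and 80.7, 133, 80.9 and 109 in WT heads. EA replicates 3 and 4 were the highest of all, and EA replicate 2 was below 2 of the WT libraries. The log2 fold change was 0.95 (95% interval 0.21 to 1.69), with an adjusted p of 0.249 in limma, 0.0369 in DESeq2 and 0.179 in edgeR. Without EA replicate 3 it was 0.68. Cyp12a4, which gives resistance to the insect growth regulator lufenuron when over-expressed, had 604, 493, 1079.8 and 834 normalized counts in EA heads and 562, 496, 393 and 543 in WT heads (log2 fold change 0.54, adjusted p = 0.356). Here too EA replicates 3 and 4 were highest and EA replicate 2 lay within the WT range, and without EA replicate 3 the log2 fold change was 0.35. The 7 genes of the clan that fit the symbol rule had a median log2 fold change of 0.11, with 4 above 0. Limma called 0 of them, against 1.21% of all genes tested. At an unadjusted p under 0.05, 2 were higher in EA heads, against 7% of all genes tested. The mitochondrial gene shd, outside the rule, gave -1.39 (adjusted p = 0.167 in limma).

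**Figure D3:**
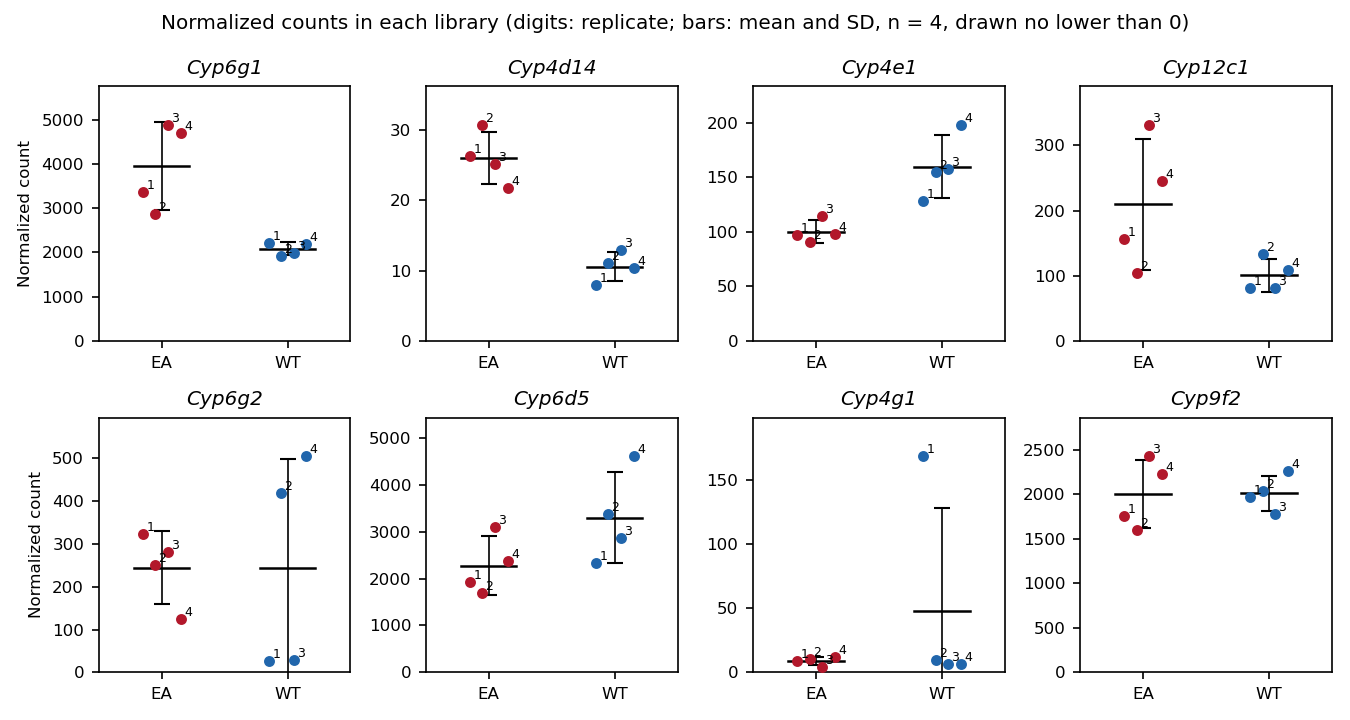
Normalized counts of 8 P450 genes in each EA (red, left) and WT (blue, right) library, with the replicate number beside each point and the mean and SD of 4 libraries as bars. The EA and WT points do not overlap for Cyp6g1, Cyp4d14 and Cyp4e1, overlap for the other genes, and split into 2 high and 2 low WT libraries for Cyp6g2.

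Several genes of insecticide or toxin metabolism that were expressed at high levels had intervals spanning 0. Cyp6a2, a phenobarbital-inducible gene linked to DDT resistance, had 1719, 2237, 3537 and 2846 normalized counts in EA heads and 2616, 2441, 2385 and 2446 in WT heads. The EA libraries lay on both sides of the WT libraries, and the log2 fold change was 0.01 (95% interval -0.41 to 0.44). Cyp6a8, a caffeine-inducible gene, gave -0.11 (-0.70 to 0.47). Cyp6w1, linked to DDT resistance in selected flies, gave 0.34 (-0.23 to 0.91), and EA replicate 3 alone had 4748 normalized counts against 1766 to 2561 in the other EA libraries and 1934 to 2363 in WT heads. Cyp28d1, linked to nicotine metabolism, gave 0.48 (-0.07 to 1.03), with 1059, 838, 2159.5 and 1101 normalized counts in EA heads and 855, 920.5, 777 and 907 in WT heads. EA replicate 3 was again far above the rest, and EA replicate 2 lay within the WT range. Without EA replicate 3 the log2 fold change was 0.05 for Cyp6w1 and 0.20 for Cyp28d1. Cyp28d2, its neighbour and also linked to nicotine, gave 0.42 (-0.27 to 1.10).

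Of the other highly expressed genes, Cyp6d5 had the lowest unadjusted p. It had 1923, 1698, 3109 and 2372 normalized counts in EA heads and 2342, 3384, 2856 and 4603 in WT heads, with a log2 fold change of -0.53 (95% interval -1.05 to -0.01, adjusted p = 0.381). EA replicates 3 and 4 overlapped the WT libraries, and without WT replicates 2 and 4 the log2 fold change was -0.22. Cyp313a1 gave 0.11 (-0.45 to 0.66) and Cyp9f2 gave -0.02 (-0.33 to 0.29), and Cyp9f2 had 1603 to 2426 normalized counts in EA heads and 1776 to 2259.7 in WT heads. Cyp28a5 and Cyp305a1 gave 0.23 (-0.16 to 0.62) and 0.36 (-0.12 to 0.83). None of these passed the test.

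Genes with known roles in behaviour were also within their replicate spread. Cyp6a20, whose expression is tied to aggression between males, had 836, 890.4, 1324 and 1129.8 normalized counts in EA heads and 1194, 1085, 1057 and 1312 in WT heads. EA replicate 3 was the highest of all and EA replicates 1 and 2 the lowest, and the log2 fold change was -0.17 (95% interval -0.50 to 0.16, adjusted p = 0.711). Cyp4d21, a male-biased and clock-controlled gene of the head that acts in male mating behaviour, had 2682, 2069, 3126 and 2475 normalized counts in EA heads and 3764, 2755, 2121 and 3114 in WT heads, with a log2 fold change of -0.17 (-0.57 to 0.23, adjusted p = 0.787). The groups overlapped over most of their range. Cyp6a17, which affects temperature preference, gave -0.17 (-0.96 to 0.62).

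P450 genes of hydrocarbon, cuticle and hormone metabolism were not called by limma. Cyp4g1, the oenocyte enzyme that completes cuticular hydrocarbons, had 9.17, 10.5, 4.38 and 12.05 normalized counts in EA heads and 168, 9.47, 6.47 and 6.92 in WT heads. It is the remaining P450 gene within 5 Mb of Adar, at 1.31 Mb. The high value was in WT replicate 1 alone. The log2 fold change was -0.92 (adjusted p = 0.771) with that library and 0.16 without it. Cyp4g15, the other Cyp4g gene, which is expressed in the brain, had 671, 742, 973 and 806 normalized counts in EA heads and 826, 761, 828 and 782 in WT heads, with a log2 fold change of -0.01 (95% interval -0.26 to 0.23). It thus lay on both sides of the WT libraries. Cyp301a1, needed for the adult cuticle, gave -0.01 (-0.42 to 0.41) at a mean of 26.6 normalized counts in both groups. Of the 16 listed genes of hydrocarbon and fatty acid synthesis 10 were tested, 0 were called by limma, and 1 was higher and 3 were lower at an unadjusted p under 0.05 (median log2 fold change -0.25). DESeq2 called the elongase gene bond lower (adjusted p = 0.00216) and the desaturase gene Desat1 higher (adjusted p = 0.0277) in EA heads, and bond was highest in WT replicates 2 and 4.

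Cyp18a1, which inactivates ecdysteroids by oxidising carbon 26, had 319.7, 246, 441 and 269 normalized counts in EA heads and 251 to 364 in WT heads. EA replicate 3 was the highest and the groups overlapped, with a log2 fold change of -0.00 (95% interval -0.42 to 0.41). Of the 12 listed genes of ecdysteroid synthesis and breakdown 4 were tested and 0 were called by limma, with 1 lower at an unadjusted p under 0.05. That gene was shd, the P450 that converts ecdysone into 20-hydroxyecdysone, which had 5.73, 6.15, 3.28 and 5.16 normalized counts in EA heads and 15.9, 11.1, 24.8 and 10.4 in WT heads (log2 fold change -1.39, adjusted p = 0.167). The groups did not overlap, at few reads. Cyp303a1, needed for sensory bristles, followed the split of the WT libraries, with 13.7, 11.4, 14.2 and 6.31 normalized counts in EA heads and 1.32, 22.1, 2.16 and 15.9 in WT heads (log2 fold change 0.71, adjusted p = 0.790). Without WT replicates 2 and 4 the log2 fold change of Cyp303a1 was 2.14 (adjusted p = 0.178), and without WT replicate 1 it was 0.16. With all libraries, DESeq2 gave 0.13 and edgeR 0.11 for Cyp303a1.

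Beside the genes already described, Cyp6a22, Cyp309a2 and Cyp4p2 were higher and Cyp6a14 and Cyp4aa1 lower in EA heads at an unadjusted p under 0.05, with adjusted p of 0.201 to 0.384. Cyp6a22 had 73.3, 47.5, 141 and 63.1 normalized counts in EA heads and 21.2, 36.3, 35.6 and 50.5 in WT heads (log2 fold change 1.10). Cyp309a2 had 107, 52.7, 245 and 93.0 in EA heads and 58.2, 58.4, 38.8 and 55.4 in WT heads (log2 fold change 1.02). In both, EA replicate 3 was highest and EA replicate 2 overlapped the WT libraries. Cyp4p2 had 25.2, 23.7, 30.6 and 23.0 normalized counts in EA heads and 15.9, 18.9, 12.9 and 6.92 in WT heads (log2 fold change 0.93). Cyp6a14 had 16.0, 12.3, 13.1 and 14.9 in EA heads and 22.5, 36.3, 24.8 and 18.0 in WT heads (log2 fold change -0.77). Neither overlapped between groups, and both had few reads. Cyp4aa1 had 69.9, 52.7, 120.3 and 77.5 normalized counts in EA heads and 76.7, 205, 104 and 194 in WT heads (log2 fold change -0.79), with WT replicates 2 and 4 highest. Without these libraries the log2 fold change of Cyp4aa1 was -0.22 (adjusted p = 0.81).

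P450 genes often arise by tandem duplication, and 39 of the 78 genes lay in 14 runs whose members were at most 10 kb apart. The longest run holds 8 genes in 31.7 kb of 2R. In it Cyp6a22 gave 1.10 while its other 6 tested genes, among them Cyp6a17, Cyp6a23, Cyp6a9, Cyp6a20 and Cyp6a8, gave -0.17 to 0.16. In the Cyp4p run, Cyp4p2 gave 0.93, Cyp4p3 0.56 and Cyp4p1 0.07. Cyp6a14 gave -0.77 and its neighbour Cyp6a13 0.19, and Cyp9b1 and Cyp9b2 gave 0.26 and -0.31. Both genes of the Cyp309a run were above 0, at 0.66 for Cyp309a1 and 1.02 for Cyp309a2, and EA replicate 3 had the highest count of each. Without EA replicate 3 they were 0.19 for Cyp309a1 and 0.62 for Cyp309a2. The differences between neighbours were not tested. How reads that map to several genes were counted is not given in the sources used here, so values of close copies are uncertain. Values identical to those of another row were found for 0 tested P450 genes, which cannot show whether copies share part of their reads.

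**Figure D4:**
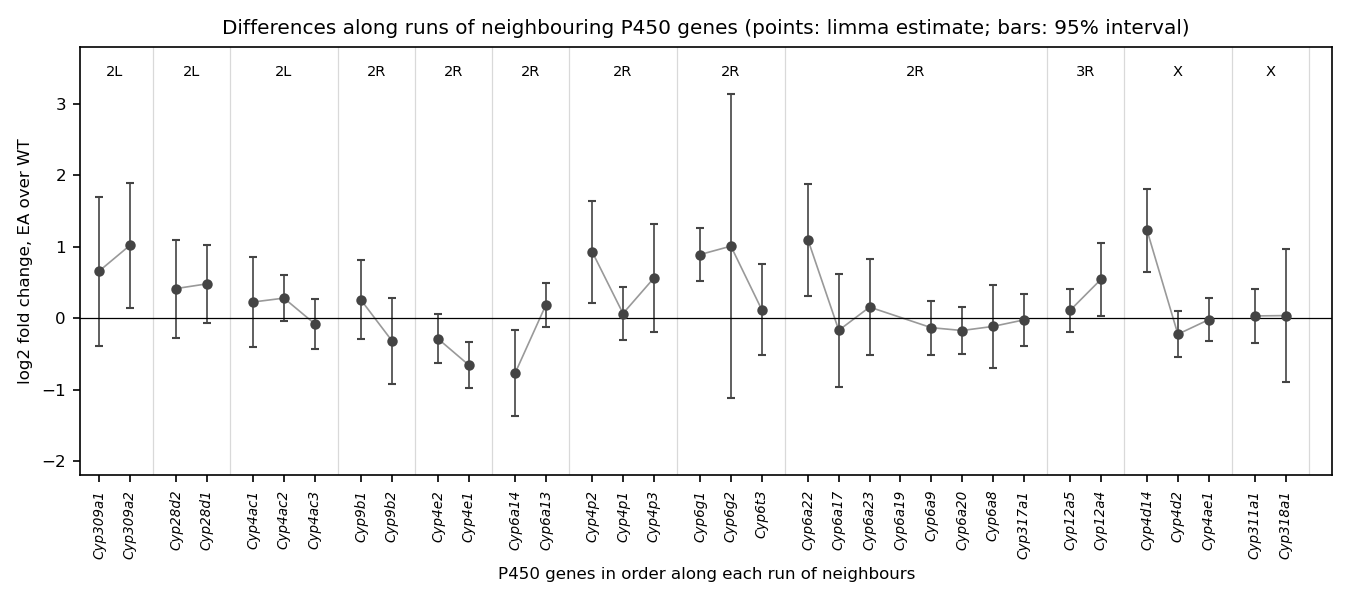
Log2 fold change of EA over WT (points: limma estimate; bars: 95% interval) for the P450 genes in order along the 12 runs with at least 2 tested genes, with the chromosome arm above each run. In the run of 8 genes on 2R, Cyp6a22 (1.10) stands above its 6 tested neighbours (-0.17 to 0.16), and in the first run on X, Cyp4d14 (1.23) stands above Cyp4d2 (-0.22) and Cyp4ae1 (-0.02).

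Among EA libraries, replicate 3 had the highest P450 levels. It was the highest EA library for 49 of the 69 tested genes (71.0%), against 35.9% of all genes tested. It was the highest of all 8 libraries for 36 of the 69, against 21.7% of all genes tested. The summed normalized count of P450 genes was 27970, 26329, 43700.2 and 35545 in EA heads and 31431, 31211, 26769.8 and 34337 in WT heads. EA replicates 3 and 4 were the highest, EA replicate 1 lay within the WT range and EA replicate 2 below it. Without EA replicate 3 the median log2 fold change was -0.02 with 32 of the 69 genes above 0, Cyp6g1 remained the 1 gene called, and the median SD of EA heads was 0.24 over P450 genes and 0.14 over all genes tested.

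Markers of other tissues were summed in the same libraries. For these and the other lists described here, counts of called genes stand beside the following shares over all genes. Limma called 0.657% higher and 0.551% lower in EA heads, and DESeq2 called 2.62% higher and 1.92% lower. At an unadjusted p under 0.05 in limma, 7% were higher and 5.65% lower. The 14 fat body genes (all in the table, 11 tested, 2 called higher in EA heads by limma and 4 by DESeq2) summed to 109741, 57898, 109081 and 105801 normalized counts in EA heads and 35508 to 48637 in WT heads. EA replicate 1 was the highest, and EA replicate 2 was the lowest of the EA libraries. Most of this sum was apolpp, a lipoprotein precursor (log2 fold change 1.08). Of the 11 tested genes 8 were above 0 and 3 below. At an unadjusted p under 0.05, 6 were higher and 0 lower in EA heads. Log2 fold changes were 2.35 for CCHa2, 1.09 for Ilp6 and 2.87 for Lsp2. The 3 below 0 were to, NLaz and Yp3, at -0.68, -0.13 and -0.19. The yolk protein gene Yp1 was at 0 in 2 EA and 2 WT libraries. The 11 oenocyte genes (9 in the table, 7 tested, 0 called by limma, 1 higher and 2 lower at an unadjusted p under 0.05, with bond and Desat1 called by DESeq2) summed to 10726 to 30013 in EA heads and 9675.6 to 12908 in WT heads, with EA replicate 3 the highest. Most of that sum was Desat1, a fatty acid desaturase also expressed elsewhere, while eloF was at 0 in all EA libraries and in 2 of the WT libraries. The 8 haemocyte genes (all tested, 0 called by limma, 2 higher at an unadjusted p under 0.05, with eater called higher by DESeq2) summed to 9163 to 19358 in EA heads and 8869 to 10558 in WT heads, with EA replicates 3 and 4 highest. Of the 9 Malpighian tubule genes (8 in the table, 5 tested, 0 called by limma, 1 higher and 1 lower at an unadjusted p under 0.05) the sums were 2164 to 2488 in EA heads and 2184 to 2506 in WT heads, with salt at 1.08 normalized counts in 1 WT library and 0 elsewhere. The 19 midgut genes (13 in the table, 4 tested) included Vha100-4, called lower in EA heads by limma and DESeq2, and Amy-d, called higher by DESeq2 (adjusted p = 0.021). They summed to 252 to 1679 in EA heads and 180.0 to 237 in WT heads, with EA replicate 3 highest through Amy-d, an amylase gene, and betaTry at 0 in all but 1 WT library. The part of these markers in the P450 values was not tested.

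WT replicates 2 and 4 shared higher levels of a small set of P450 genes. Cyp303a1, Cyp6d2, Cyp6g2 and Cyp49a1 were at least 2-fold higher in each of WT replicates 2 and 4 than in each of WT replicates 1 and 3, which is 5.80% of the 69 genes and 0.667% of all genes tested. The reverse was seen for 0 P450 genes and for 0.493% of all genes tested. Cyp6d2 had 6.87, 17.6, 38.3 and 13.2 normalized counts in EA heads and 6.62, 31.6, 4.32 and 27.0 in WT heads. Cyp49a1 had 16.0, 18.5, 9.85 and 14.9 in EA heads and 19.8, 47.4, 12.9 and 46.4 in WT heads. EA replicate 3 was the highest of all libraries for Cyp6d2 and the lowest for Cyp49a1. Cyp6d2 had a log2 fold change of 0.29 with all libraries and 1.41 without WT replicates 2 and 4, and Cyp49a1 had -0.89 with all libraries and -0.14 without them. The 8 salivary gland and proventriculus genes (7 in the table, 6 tested, 0 called by limma, 2 lower in EA heads at an unadjusted p under 0.05, with Pgant4 and Muc68D called lower by DESeq2) summed to 24.1 to 229 in EA heads and 50.3 to 27932 in WT heads, with WT replicates 2 and 4 highest, and their part in these P450 values was not tested. Cyp4e3 had its high value of 155 in WT replicate 2 alone, against 33.4 to 62.0 in EA heads and 25.1 to 53.9 in the other WT libraries. Its log2 fold change was -0.11 with all libraries and 0.36 without WT replicates 2 and 4.

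**Figure D5:**
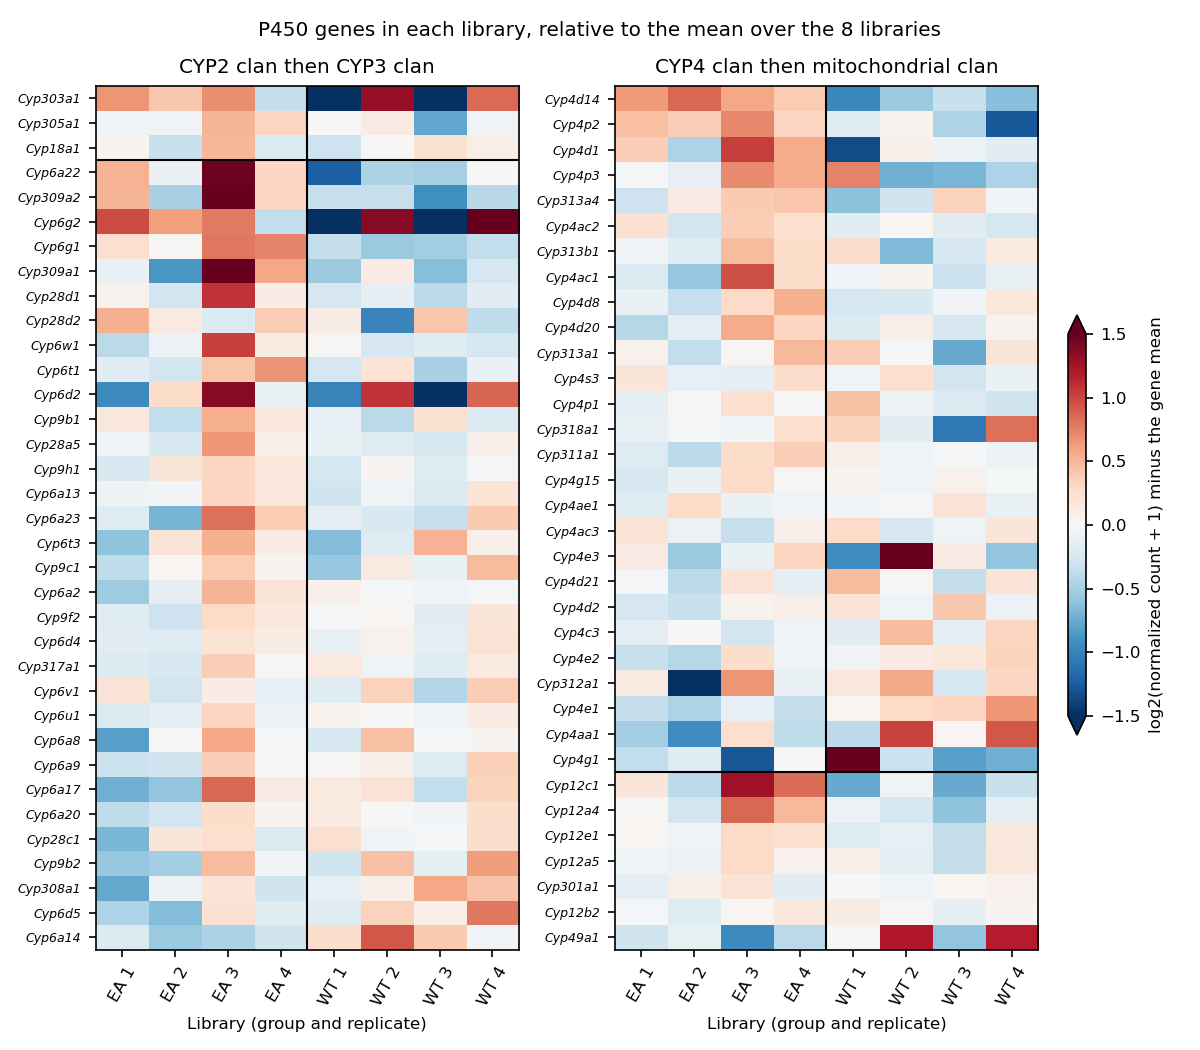
Level of each of the 69 tested P450 genes in each library as log2(normalized count + 1) minus the mean of the gene over the 8 libraries (colour; scale ends at 1.5 either way), with EA libraries left of the black line and WT libraries right of it. The column of EA replicate 3 is mostly red (highest of all 8 libraries for 36 of the 69 genes, against 21.7% of all genes tested). Cyp303a1, Cyp6g2, Cyp6d2 and Cyp49a1 are red in WT replicates 2 and 4.

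Genes that serve P450 enzymes were not called by limma. Cpr, the reductase that feeds electrons to P450 enzymes of the endoplasmic reticulum, had 1763, 1798, 2099 and 2152 normalized counts in EA heads and 2054, 2053, 1927 and 2146 in WT heads (log2 fold change -0.07, adjusted p = 0.825). Its groups overlapped. The ferredoxin reductase gene dare and the ferredoxin genes Fdx1 and Fdx2, which serve the mitochondrial clan, gave 0.02, 0.04 and 0.32, and Cyt-b5, whose product can donate an electron to some P450 enzymes, gave 0.19. Cyt-b5-r, which encodes a protein with a cytochrome b5 domain, had 2339.7, 1412, 7453 and 4299 normalized counts in EA heads and 1658, 1896, 1194 and 1627 in WT heads (log2 fold change 1.03, adjusted p = 0.361). EA replicate 3 was again highest, EA replicate 2 lay within the WT range, and the log2 fold change was 0.62 without EA replicate 3. Of these 6 genes 0 were called by limma, with 1 higher in EA heads at an unadjusted p under 0.05. The 6 tested genes of haem synthesis and breakdown gave -0.23 to 0.22, with 0 called and 0 at an unadjusted p under 0.05. The 8 regulators of xenobiotic response, among them the transcription factor gene cnc and its inhibitor Keap1, gave -0.35 to 0.24, with 0 called by limma and, at an unadjusted p under 0.05, 1 higher and 1 lower in EA heads.

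The remaining 9 genes did not reach the minimum mean. They were Cyp304a1, Cyp6a16, Cyp310a1, Cyp6a19, Cyp316a1, Cyp313a5, Cyp313a2, Cyp313a3 and Cyp6a18, and their count did not exceed 10 reads in any library. With no filter on low values Cyp6g1 was still the 1 P450 gene called by limma. Cyp310a1 had 2.29, 0, 1.09 and 2.87 normalized counts in EA heads and 5.29, 1.58, 1.08 and 0.692 in WT heads. Cyp316a1 was at 0 in all libraries but WT replicate 2. The filter on low values fell in a wide gap, since the highest mean among the genes left out was 3.22 (Cyp304a1) and the lowest among those tested was 10.1 (Cyp312a1).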

How the data were processed

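The authors mapped paired reads with TopHat. The submitters' processing notes also name featureCounts, Subread and DESeq2, with the builds dm3 and BDGP5. The deposited table gives, for each gene and library, a signal that is a read count divided by a DESeq2 size factor. Beside it the authors gave the mean signal, a log2 fold change and its standard error on the log2 scale, a Wald score, and p-values with and without adjustment. The columns of the authors' comparison were not used.

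Whole reads were recovered from the normalized values (100% of values whole within 0.01). The table held 14622 genes, and 14023 (95.9%) matched Ensembl BDGP6.54 (release 115), which gave symbols, positions and exon lengths. That build differs from the authors', so positions served description only. Clans were assigned from the family number in the symbol.

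EA and WT were compared on all 8 libraries with limma 3.58.1 (R 4.3.3; lmFit, eBayes with a trend) on log2(normalized count + 1), for 10347 genes with a mean of at least 10, two-sided, with Benjamini-Hochberg adjustment over all of them and a threshold of 0.05. Intervals are 95% limma intervals. Fold changes are on the log2(value + 1) scale, which can understate changes of low genes. Where the libraries of a group differ widely, they can also exceed count-based estimates, as for Cyp303a1. Lists were described by counts of called genes, sums, medians or ranges of log2 fold changes, with no test of a list. DESeq2 1.42.0 and edgeR 4.0.16 (quasi-likelihood) were run on recovered reads as alternatives. DESeq2 gave no adjusted p for Cyp4g1. The other alternatives were TMM scaling, no filter, a minimum mean of 50, pseudocounts of 0.5 and 5, no variance trend, a replicate block, a threshold of 0.01 and leaving out libraries. The fits were tested on simulated data.

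The members and lists were chosen with earlier results of these data known. Named genes were those called by limma, DESeq2 or edgeR and the 10 with the highest levels per kb. Up to 5 rises and 5 falls without overlap at a mean of at least 50 were also named, which only Cyp6g1 and Cyp4e1 met. The others were those within 5 Mb of Adar, genes with known roles, redox partners, and w and Adar. Cyp6g2, Cyp6t3, Cyp6d2, Cyp49a1, Cyp4aa1, Cyp4e2, Cyp4e3, Cyp6a9, Cyp6a13, Cyp6a14, Cyp6a17, Cyp6a22, Cyp6a23, Cyp9b1, Cyp9b2, Cyp28d2, Cyp309a1, Cyp309a2, Cyp4p1, Cyp4p2, Cyp4p3 and single list genes such as shd were chosen after their values were seen. Limma called 3 of the 9 tested photoreceptor genes higher and 1 of the 4 tested cuticle genes lower in EA heads. The shares over all genes tested were 0.657% higher and 0.551% lower. DESeq2 called the photoreceptor genes Arr2, inaC, ninaC, ninaE and Arr1 higher and trpl lower, and the cuticle gene Cpr72Ec lower. Limma called 0 glia and 0 neuron genes (2 and 1 higher at an unadjusted p under 0.05), and DESeq2 called the neuron gene Syt1.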

Additional observations from a re-analysis of the deposited data

Results flagged for a closer look

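In 53 genes, the lowest or highest of the 4 libraries of a group was compared with the rest (106 groups), and 3 lay apart by Dixon's criterion, where chance gives about 1 in 20 groups. Cyp4g1 had 168 normalized counts in WT replicate 1, against 6.47 to 9.47 in the other WT libraries. Cyp4p3 had 142 normalized counts in WT replicate 1, against 50.5 to 60.9 in the other WT libraries. Cyp309a2 had 38.8 normalized counts in WT replicate 3, against 55.4 to 58.4 in the other WT libraries.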

How the results depend on the processing

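Limma called 1 P450 gene, and 1 was also called with TMM scaling, no filter on low values, a minimum mean of 50, pseudocounts of 0.5 and 5 and no variance trend. With no variance trend the called gene was Cyp4d14 and not Cyp6g1. DESeq2 called 4 and edgeR 2, and a threshold of 0.01 left 0. DESeq2 called 520 of all genes and edgeR 126, against 125 with limma. Leaving out each library in turn gave 0 to 1 P450 genes, with 36 to 184 of all genes called. Leaving out WT replicates 2 and 4 together gave 1 (Cyp6g2), with 19 of all genes called. Deviations of libraries with the same number correlated at -0.227 to 0.189, so the numbers were not taken to pair the samples; a fit with the replicate block called 0 P450 genes and 26 of all genes (Cyp6g1 adjusted p = 0.123). Over 921 values of 52 genes, 843 kept their direction and their side of the threshold, 9 lost the call (all Cyp6g1), 7 gained it (4 genes) and 62 changed sign (21 genes); the cause was not tested.

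The log2 fold changes that changed sign were as follows. With TMM scaling Cyp18a1 was 0.0093 and Cyp301a1 0.003. With DESeq2 Cyp18a1 was 0.0165 and Cyp6g2 -0.0016. With edgeR Cyp18a1 was 0.0286, Cyp301a1 0.0011, Cyp4ae1 0.0007, Cyp4g15 0.0086, Cyp6g2 -0.0026 and Cyp9f2 0.0063. Without WT replicates 2 and 4 together Cyp18a1 was 0.0398, Cyp28d2 -0.0577, Cyp4e3 0.3588, Cyp4p1 -0.0866, Cyp6a17 0.0274, Cyp6a2 -0.0021, Cyp6a8 0.0677, Cyp6a9 0.0204, Cyp9b2 0.0592 and Cyp9f2 0.0773. On leaving out each library in turn the ranges were -0.17 to 0.11 for Cyp18a1, -0.076 to 0.046 for Cyp301a1, -0.13 to 0.25 for Cyp313a1, -0.12 to 0.044 for Cyp4ae1, -0.44 to 0.42 for Cyp4e3, -1.34 to 0.16 for Cyp4g1, -0.11 to 0.064 for Cyp4g15, -0.021 to 0.23 for Cyp4p1, -0.48 to 0.045 for Cyp6a17, -0.15 to 0.19 for Cyp6a2, -0.093 to 0.41 for Cyp6a23, -0.33 to 0.14 for Cyp6a8, -0.17 to 0.70 for Cyp6d2, -0.074 to 0.34 for Cyp6t3, -0.12 to 0.080 for Cyp9f2, -0.054 to 0.12 for Fdx1 and -0.060 to 0.092 for dare.

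Depth limits the 9 genes with at most 10 reads in any library and genes such as Cyp4d14, Cyp4p2 and Cyp6a14 with few reads. The spread between the 4 libraries of a group, the unknown origin of the replicates, the unstated strand setting, close copies and the strain difference limit the rest.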
